A study of Mus musculus with 14 samples.

Results

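The genes described are those for the neurotrophins Bdnf and Ntf3 and the receptors Ntrk2, Ntrk3, Ngfr and Sort1, 6 of the 36118 genes in a table of hippocampal RNA from 14 mice. They were chosen by gene symbol. All 6 had a row in the table and passed the filter on low counts, as did 16637 genes in total. The mice were 4 WT in room air (WT-RA), 4 WT in hyperoxia (WT-O2), 3 Gsdmd knockout in room air (KO-RA) and 3 Gsdmd knockout in hyperoxia (KO-O2), with 1 library per mouse. Hyperoxia was 85% O2 from postnatal day 1 to day 14, and tissue was taken at postnatal day 15. The KO mice carried a short deletion in Gsdmd exon 5 on both alleles in every cell. Gsdmd encodes the pore-forming protein of pyroptosis. The WT mice were littermates from matings of heterozygotes on a C57BL/6N background. Gsdmd itself was counted in every library, with 41 to 63 estimated counts in the 8 WT and 22 to 42 in the 6 KO mice. The genotypes overlapped by a single pair of mice, and a sum over transcripts cannot tell deleted from intact ones.

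Neurotrophins are secreted growth factors that neurons make as longer precursors and that promote survival, dendrite growth and synaptic strength. Mature BDNF acts through the receptor tyrosine kinase TrkB, the product of Ntrk2, and neurotrophin-3, the product of Ntf3, acts mainly through TrkC, the product of Ntrk3. Ngfr encodes the p75 receptor, which binds each of the neurotrophins and, together with sortilin, the product of Sort1, binds their uncleaved precursors. In the hippocampus Bdnf is made by excitatory neurons and depends on activity, Ntf3 is known from the granule cells of the dentate gyrus, and p75 is carried mostly by the axons of cholinergic neurons whose cell bodies lie in the basal forebrain. Ntrk2 and Ntrk3 each give a full-length receptor and a truncated form without the kinase. The deposited values are sums over all transcripts of a gene, so these forms, and the several promoters of Bdnf, were not told apart.

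Between genotypes, 3 of the 6 genes differed in room air and 2 of 6 in hyperoxia, against 10.4% and 6.86% of all genes. Bdnf was higher in KO mice under both exposures and Ntf3 in room air, while Ngfr was lower in KO mice under both exposures. Since these 3 genes differed, 1 window of 250 bases ahead of a start site is shown for each, read 5′ to 3′ on the strand of the gene from RefSeq sequence of build GRCm38.p6. Capitals mark the letters CATATG and TCACGTCA in Bdnf and CACGTG in Ntf3, and none of these letters occurred in the window of Ngfr. The windows are Bdnf at chr2:109692186-109692435 on the plus strand, Ntf3 at chr6:126166745-126166994 on the minus strand and Ngfr at chr11:95587699-95587948 on the minus strand.
Bdnf: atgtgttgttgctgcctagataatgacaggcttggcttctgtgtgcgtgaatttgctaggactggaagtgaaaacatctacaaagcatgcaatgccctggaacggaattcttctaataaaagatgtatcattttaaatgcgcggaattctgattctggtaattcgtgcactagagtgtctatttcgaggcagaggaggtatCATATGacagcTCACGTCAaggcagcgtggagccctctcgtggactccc
Ntf3: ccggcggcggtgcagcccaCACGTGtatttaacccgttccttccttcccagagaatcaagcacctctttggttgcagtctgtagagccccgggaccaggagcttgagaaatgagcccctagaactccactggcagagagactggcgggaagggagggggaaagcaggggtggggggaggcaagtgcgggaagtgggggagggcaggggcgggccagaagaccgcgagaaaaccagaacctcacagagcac
Ngfr: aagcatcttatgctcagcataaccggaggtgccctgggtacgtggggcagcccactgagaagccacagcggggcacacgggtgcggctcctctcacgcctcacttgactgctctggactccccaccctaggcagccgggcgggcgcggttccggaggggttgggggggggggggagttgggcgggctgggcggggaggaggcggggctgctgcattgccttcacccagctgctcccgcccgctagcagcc

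The 6 motifs searched on both strands of the windows were the cyclic AMP element TGACGTCA, its variant TCACGTCA, the shared core TGACG, the E-boxes CACGTG and CATATG, and the GC box GGGCGG. A match to TCACGTCA always includes the core on the other strand. In the Bdnf window, which is 1 of 7 listed for this gene, CATATG began at position -49 and TCACGTCA at position -38 from the start. No other Bdnf window held TCACGTCA, and several held none of the 6 motifs, so the window shown does not stand for the rest. The percentages that follow are per window, while Bdnf has 7. TCACGTCA occurred in 0.35% of 32851 windows of the same length and CATATG in 3.46%. CATATG also began at position -189 of another Bdnf window, and the full TGACGTCA, found in 1.55% of windows, occurred in none of the Bdnf windows. In the Ntf3 window, 1 of 2 for this gene, CACGTG began at position -231, and 6.02% of windows held it. GGGCGG or its complement, found in 32.7% of windows, occurred at 4 places in the Ngfr window, at 1 place in each of the 2 Ntf3 windows and in 2 of the 7 Bdnf windows, though not in the Bdnf window shown. The core TGACG occurred in 17.8% of windows. Ntrk2 has 1 window, in which none of the motifs occurred, and Ntrk3 and Sort1 have no entry. These matches describe letters, and which Bdnf promoter was used was not measured.

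The libraries were even in depth, from 27272270 to 28257496 estimated counts. Libraries of the same group differed by more than counting noise, with a chi-square per degree of freedom of 7.08 to 58 over genes, so each mouse was counted as 1 replicate. Mouse numbers run from GSD398 to GSD408 for WT and from GSD489 to GSD496 for KO, so the range of mouse numbers and the genotype cannot be told apart. Mouse GSD408 is hyperoxia in its title and room air in its treatment field, and was used as WT-O2. Markers of brain regions also followed genotype. The summed level of 8 hippocampal and pallial markers ran from 470 to 835 CPM (estimated counts relative to the library total, scaled by TMM) in WT and from 1030 to 1340 CPM in KO mice, and that of 8 striatal markers from 318 to 746 CPM in WT and from 138 to 232 CPM in KO mice. The 7 thalamic markers summed to 83.9 to 534 CPM in WT and 78 to 98.9 CPM in KO mice. The 5 cholinergic markers summed to 4.49 to 16.5 CPM in WT and 2.06 to 3.56 CPM in KO mice. By the test described next, 7 and 5 of the 8 hippocampal and pallial markers were called higher in KO mice in room air and in hyperoxia, while 8 and 8 of the 8 striatal, 4 and 5 of the 7 thalamic and 4 and 5 of the 5 cholinergic markers were called lower. Over all genes, 3.75% and 2.51% were called higher, and 6.7% and 4.35% lower. Of the 6 oligodendrocyte lineage markers, 4 were called lower in KO mice in each exposure. Called lower in room air and in hyperoxia were 3 and 2 of 6 GABAergic interneuron and 3 and 2 of 5 subplate and deep cortical markers. Of 6 astrocyte markers 2 and 2 were called higher, and of 5 meningeal fibroblast markers 1 and 0. The microglial, endothelial and mural, and choroid plexus lists held 0 called genes. No list had a gene at 0 in every library of a group. In bulk tissue, fewer cells of a type and less RNA per cell cannot be told apart. The tissue label is hippocampus, and its markers Prox1 and Zbtb20 were present in every library, beside genes of striatal and thalamic neurons.

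Values are given per mouse as CPM in the order GSD398, GSD399, GSD400 and GSD401 for WT-RA, GSD404, GSD405, GSD406 and GSD408 for WT-O2, GSD489, GSD490 and GSD496 for KO-RA, and GSD491, GSD494 and GSD495 for KO-O2. Differences are log2 fold changes with their standard errors from edgeR's quasi-likelihood F-test in all 14 libraries, and q is the p adjusted by Benjamini-Hochberg across 16637 genes. Genes were called where q was under 0.1, p under 0.05 and the log2 fold change 0.32 or more in size, the limits of the study's methods. For the interaction of genotype and exposure the limit on fold change was not applied. WT-RA mice enter both WT-O2 vs WT-RA and KO-RA vs WT-RA, so these 2 comparisons are not independent.

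Bdnf (ENSMUSG00000048482), the ligand of TrkB, was at 26.3, 28.6, 28.8 and 26 CPM in WT-RA and at 29.9, 25.7, 27.1 and 22.2 CPM in WT-O2. It was at 48.4, 36.5 and 39.4 CPM in KO-RA and at 33.9, 35.9 and 39.6 CPM in KO-O2. Each of the 6 KO mice lay above each of the 8 WT mice, and the exposures overlapped within both genotypes. Bdnf rose 1.51-fold in KO-RA vs WT-RA (log2 fold change 0.59, SE 0.10, edgeR q = 0.00272) and 1.39-fold in KO-O2 vs WT-O2 (log2 fold change 0.48, SE 0.11, edgeR q = 0.0146). Over all genes, 3.75% were called higher in the former and 2.51% in the latter. Hyperoxia gave log2 fold changes of -0.07 in WT (95% interval -0.28 to 0.14) and -0.18 in KO mice (-0.42 to 0.05), neither called. The hippocampal and pallial marker sum was higher in the same KO mice, as given above.

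Ntf3 (ENSMUSG00000049107), the ligand of TrkC, was at 3.16, 2.85, 2.72 and 1.08 CPM in WT-RA and at 3.96, 2.87, 3.82 and 4.1 CPM in WT-O2. It was at 6.17, 5.39 and 5.48 CPM in KO-RA and at 6.41, 5.21 and 5.55 CPM in KO-O2. The KO mice again lay above the WT mice without overlap, and WT-RA mouse GSD401, the lowest of all, was also the lowest for the hippocampal and pallial markers. Ntf3 rose 2.31-fold in KO-RA vs WT-RA (log2 fold change 1.21, SE 0.25, edgeR q = 0.00647). In KO-O2 vs WT-O2 the log2 fold change of 0.63 (SE 0.24) had an edgeR q of 0.157 and was not called. It was called there by DESeq2 (q = 0.0807), by edgeR on these groups alone (q = 0.0288) and without WT-RA mouse GSD401 (edgeR q = 0.0128). With hyperoxia the WT value was 0.59 (SE 0.24, edgeR q = 0.327), with overlapping groups, and the KO value was 0.01 (95% interval -0.53 to 0.56).

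**Figure D1:**
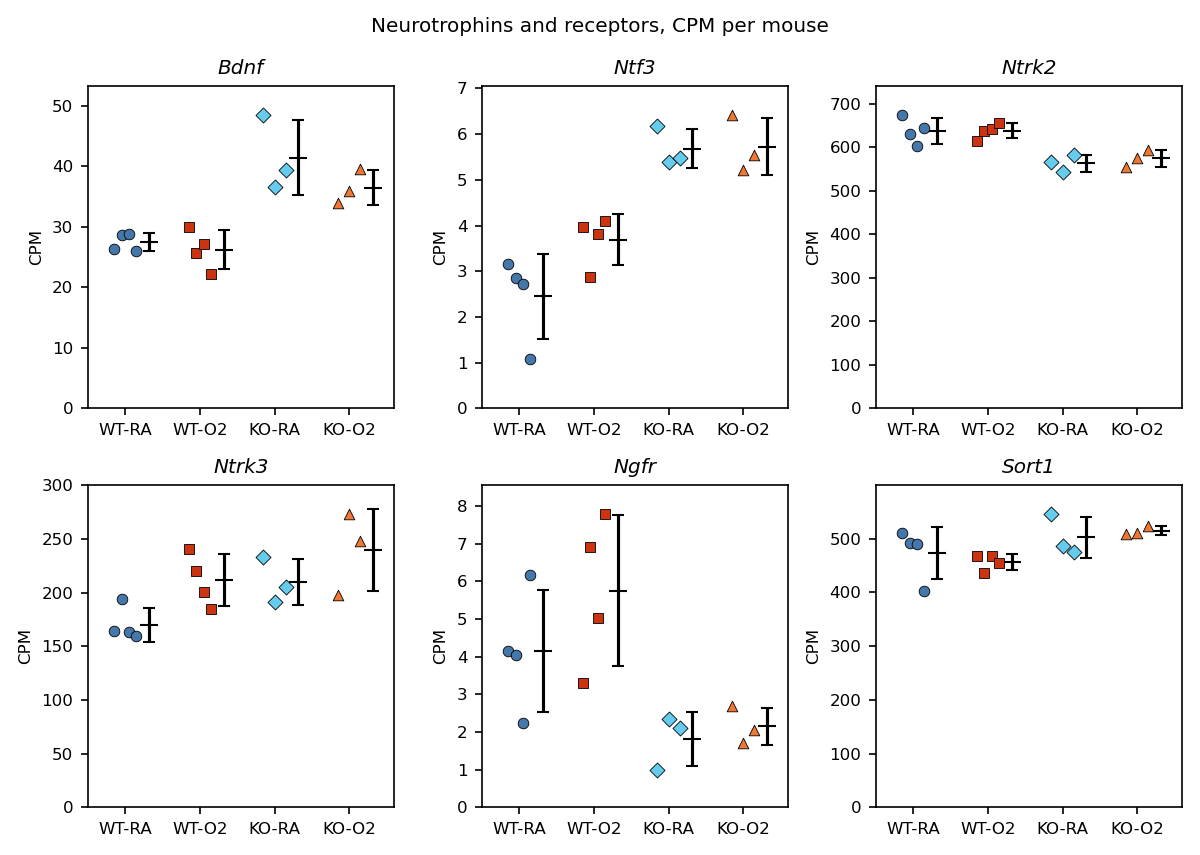
CPM of the 6 genes in each mouse, with 1 panel per gene, groups on the x axis and CPM from 0 on the y axis. Points are mice and the bars beside them are the mean and SD of the group (n = 4, 4, 3 and 3). Bdnf and Ntf3 are higher in every KO mouse than in any WT mouse, Ntrk2 is lower, and for Ngfr the lowest WT-RA mouse, at 2.23 CPM, falls among the KO mice.

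Ntrk2 (ENSMUSG00000055254), which encodes TrkB and had the highest CPM of the 6 genes, was at 673, 630, 603 and 643 CPM in WT-RA and at 615, 636, 642 and 656 CPM in WT-O2. It was at 565, 542 and 581 CPM in KO-RA and at 555, 574 and 593 CPM in KO-O2. All 6 KO mice lay below all 8 WT mice, in the opposite direction to Bdnf, but the step was small. The log2 fold change was -0.18 (SE 0.06, edgeR q = 0.0527) in KO-RA vs WT-RA, where its fold was below the threshold, and -0.15 (SE 0.06, edgeR q = 0.138) in KO-O2 vs WT-O2. Ntrk2 was therefore called in neither. Its values in WT-O2 vs WT-RA (0.00, 95% interval -0.11 to 0.11) and in KO-O2 vs KO-RA (0.03, 95% interval -0.10 to 0.15) had the narrowest intervals of the 6 genes.

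Ntrk3 (ENSMUSG00000059146), which encodes TrkC, was at 164, 194, 163 and 160 CPM in WT-RA and at 241, 220, 201 and 185 CPM in WT-O2. It was at 233, 191 and 205 CPM in KO-RA and at 198, 273 and 248 CPM in KO-O2. WT-RA held the 3 lowest mice, and its highest mouse, GSD399, lay within the range of WT-O2 and of KO-RA and below each KO-O2 mouse. In WT-O2 vs WT-RA the log2 fold change was 0.31 (SE 0.11, edgeR q = 0.237), and in KO-RA vs WT-RA it was 0.30 (SE 0.11, edgeR q = 0.116). Neither was called, and the latter was called without mouse GSD399 (edgeR q = 0.0752). Both values rest on the same 4 WT-RA mice. In hyperoxia the KO value against WT was 0.18 (SE 0.11), and within KO mice the exposure value was 0.19 (SE 0.12).

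Ngfr (ENSMUSG00000000120), the p75 receptor, was at 4.15, 4.05, 2.23 and 6.17 CPM in WT-RA and at 3.3, 6.92, 5.03 and 7.78 CPM in WT-O2. It was at 1, 2.34 and 2.1 CPM in KO-RA and at 2.68, 1.72 and 2.06 CPM in KO-O2, with as few as 27 counts in a library. The KO-O2 mice lay below the WT-O2 mice, while in room air mouse GSD400 fell among the KO-RA mice. Ngfr fell to 0.375 of its WT level in KO-O2 vs WT-O2 (log2 fold change -1.41, SE 0.36, edgeR q = 0.0322) and to 0.44 of it in KO-RA vs WT-RA (log2 fold change -1.19, SE 0.37, edgeR q = 0.0552). Over all genes, 4.35% were called lower in the former and 6.7% in the latter. Neither call held under every alternative. That in room air was lost with edgeR on these 2 groups alone (edgeR q = 0.103), at a q threshold of 0.05, and without WT-RA mouse GSD401, KO-RA mouse GSD489 or KO-RA mouse GSD496 (edgeR q = 0.143, 0.213 and 0.108), and that in hyperoxia without KO-O2 mouse GSD494 or GSD495 (edgeR q = 0.132 and 0.125) and with mouse GSD408 as room air (edgeR q = 0.13). The summed cholinergic markers were also lowest in WT mice GSD400 and GSD404, at 4.49 and 5.42 CPM, where Ngfr was at its lowest WT values. Chat, which makes acetylcholine and marks cholinergic neurons, had 12 to 98 counts in WT libraries and 1 to 2 in KO libraries.

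Sort1 (ENSMUSG00000068747), the sortilin gene, was at 510, 491, 490 and 402 CPM in WT-RA and at 468, 435, 468 and 455 CPM in WT-O2. It was at 545, 486 and 475 CPM in KO-RA and at 509, 510 and 524 CPM in KO-O2. The hyperoxia groups did not overlap, with KO above WT, and the room air groups did. The log2 fold change was 0.17 in KO-O2 vs WT-O2 (SE 0.08, edgeR q = 0.238) and 0.09 in KO-RA vs WT-RA (SE 0.08), and Sort1 was called in no comparison. Hyperoxia gave -0.05 in WT (95% interval -0.20 to 0.10) and 0.03 in KO mice (-0.14 to 0.21).

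For hyperoxia, edgeR called 0 of the 6 genes in WT and 0 in KO mice, where 0.643% and 0.012% of all genes were called. An unadjusted p below 0.05 was reached by 2 of the 6 in WT, against 12.2% of all genes, and by 0 in KO mice, against 4.86%. The exposure groups overlapped for each of the 6 genes in both genotypes, while 5.99% of all genes in WT and 11.8% in KO mice did not overlap. DESeq2 also called 0 of 6 in each. In KO-RA vs WT-RA 3 of 6 were called, against 10.4% of all genes, and 5 of 6 had an unadjusted p below 0.05, against 23.5%. In KO-O2 vs WT-O2 2 of 6 were called, against 6.86% of all genes, and 5 of 6 had an unadjusted p below 0.05, against 18.7%. The groups did not overlap for 3 of 6 genes in room air and 5 of 6 in hyperoxia, which holds for 19.6% and 19% of all genes. The median log2 fold change of the 6 genes was 0.19 in KO-RA vs WT-RA and 0.17 in KO-O2 vs WT-O2, beside -0.01 over all genes in each, and it joins genes of opposite direction. For the interaction of genotype and exposure, edgeR called 0 of 6 and 0 of all genes (4.05% with an unadjusted p below 0.05), DESeq2 also called 0, and none of the 6 had an unadjusted p below 0.05. The largest interaction value was that of Ntf3, a log2 difference of -0.58 (95% interval -1.32 to 0.17), and that of Bdnf was -0.12 (-0.44 to 0.20).

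**Figure D2:**
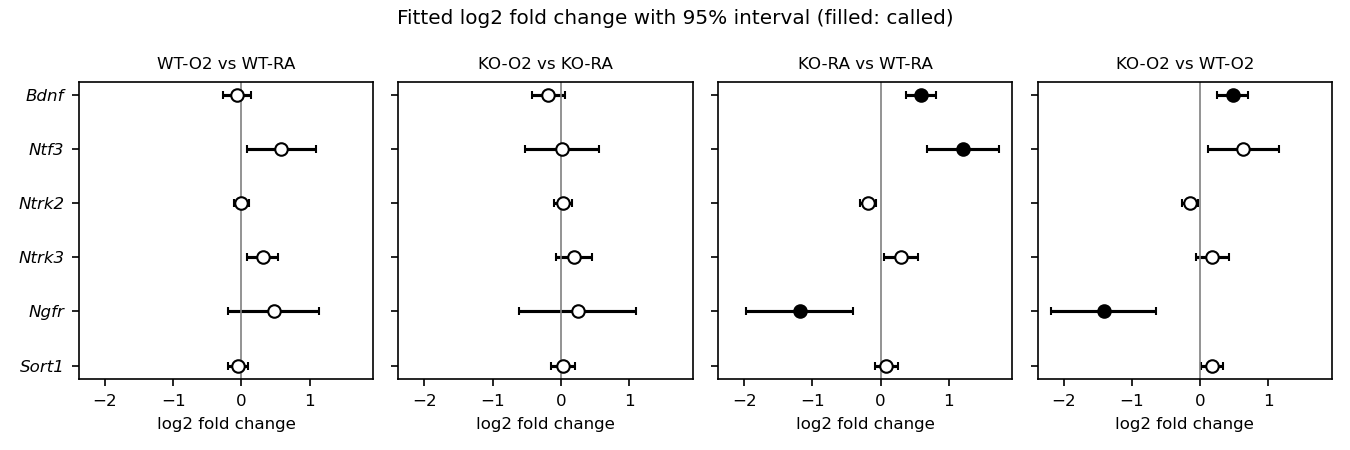
Fitted log2 fold change (x axis) of each gene (y axis) in the 4 comparisons of groups, with 95% intervals as bars. Filled points were called. Both hyperoxia panels hold open points, and the genotype panels show Bdnf at 0.59 and 0.48 and Ngfr at -1.19 and -1.41.

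The genotype differences were set beside the region markers, which differed in the same mice. With the hippocampal and pallial marker score as a covariate, an alternative chosen after seeing the data, Bdnf had a log2 fold change of -0.08 (SE 0.19) in KO-RA vs WT-RA and -0.08 (SE 0.16) in KO-O2 vs WT-O2. In either comparison this fit called 0 of the 6 genes and 0 of all genes. Without a covariate, 1738 and 1142 of all genes were called. With the cholinergic score as a covariate, Ngfr had 0.13 (SE 0.42) in room air and 0.21 (SE 0.48) in hyperoxia. Again 0 of 6 were called, beside 590 of all genes in room air and 51 in hyperoxia. With striatal and thalamic scores, 0 of 6 were called, beside 16 of all genes in room air and 12 in hyperoxia. Ntf3 in KO-RA vs WT-RA had 1.26 (SE 0.55, edgeR q = 0.608) with these scores. Its value there was 0.96 (SE 0.41, edgeR q = 0.298) with the cholinergic score and 0.045 (SE 0.57, edgeR q = 0.988) with the hippocampal and pallial score. In linear fits of genotype, R² was 0.859 on the hippocampal and pallial score, 0.792 on the cholinergic score and 0.887 on the striatal and thalamic scores together. Within the covariate fits, genotype and region content therefore cannot be told apart.

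In the relations that follow, the score of a list is log2 of its summed CPM, set against log2 CPM of the gene. The covariate scores above were instead means of standardized log2 CPM over the markers. Within the 8 WT mice, where genotype is constant, Ngfr was compared with the cholinergic marker score (Pearson's r = 0.864, exact permutation p = 0.0035, Spearman's rho = 0.762, exact permutation p = 0.0368). After Benjamini-Hochberg adjustment over 56 relations of genes and scores in WT and KO mice, the exact permutation p was 0.106 for r and 0.324 for rho, and r was 0.516 without the 2 mice farthest from the median score. Within the 6 KO mice the same relation had the opposite sign, with r = -0.519 (exact permutation p = 0.31, adjusted 0.595), rho = -0.429 (exact permutation p = 0.419, adjusted 0.749) and r = -0.777 without the 2 farthest mice. Ntrk2 gave r = 0.895 with the thalamic score in WT (exact permutation p = 0.00377, adjusted 0.106), rho = 0.69 (exact permutation p = 0.0694, adjusted 0.324) and r = 0.723 without the 2 farthest mice, and in KO mice it gave r = -0.384 (exact permutation p = 0.443, adjusted 0.689), rho = -0.543 (exact permutation p = 0.297, adjusted 0.644) and r = -0.43 without the 2 farthest mice. Ntf3 gave r = 0.881 with the hippocampal and pallial score in WT (exact permutation p = 0.0183, adjusted 0.171), rho = 0.595 (exact permutation p = 0.132, adjusted 0.401) and 0.238 without the 2 farthest mice, so this relation rests on those mice. In KO mice Ntf3 gave r = 0.185 with this score (exact permutation p = 0.65, adjusted 0.85). Bdnf gave r = 0.316 with the same score in WT (exact permutation p = 0.401, adjusted 0.66), rho = 0.429 (exact permutation p = 0.299, adjusted 0.644) and r = 0.005 without the 2 farthest mice. In KO mice it gave r = 0.607 (exact permutation p = 0.185, adjusted 0.47). With the cholinergic score Bdnf gave r = -0.713 in WT (exact permutation p = 0.0445, adjusted 0.208) and 0.506 in KO mice (exact permutation p = 0.325, adjusted 0.595). With the thalamic score it gave r = -0.554 in WT (exact permutation p = 0.154, adjusted 0.41) and -0.9 in KO mice (exact permutation p = 0.00972, adjusted 0.136). Sort1 gave r = 0.654 with the hippocampal and pallial score in WT (exact permutation p = 0.0902, adjusted 0.274) and 0.92 in KO mice (exact permutation p = 0.00833, adjusted 0.136). None of the 56 relations passed 0.05 after adjustment. Room air and hyperoxia mice enter each of these together, and each exposure holds too few mice for a value of its own.

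**Figure D3:**
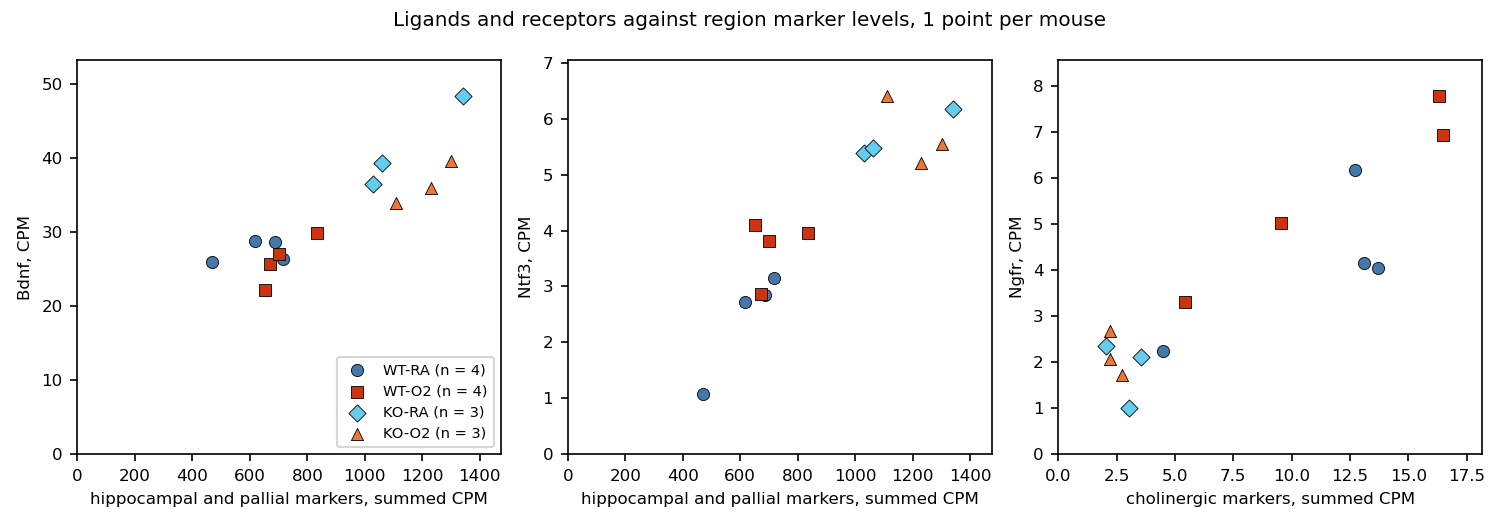
CPM of Bdnf and Ntf3 against the summed CPM of the 8 hippocampal and pallial markers, and of Ngfr against that of the 5 cholinergic markers, with both axes from 0 and 1 point per mouse. KO mice lie at 1030 CPM or more of the hippocampal and pallial sum and at 3.56 CPM or less of the cholinergic sum. WT-RA mouse GSD400 and WT-O2 mouse GSD404 lie nearest to the KO mice in the cholinergic panel, at 4.49 and 5.42 CPM.

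Of 5 other ligand and receptor genes, 1, Sorcs1, was lower in KO mice under both exposures and the rest were not called. Over all genes, 6.7% were called lower in KO-RA vs WT-RA and 4.35% in KO-O2 vs WT-O2. Sorcs1, a sorting receptor of the sortilin family, was at 26.6, 33.2, 44.2 and 33.8 CPM in WT-RA and at 29.2, 32.8, 25.6 and 29.7 CPM in WT-O2. It was at 9.62, 12.6 and 12.7 CPM in KO-RA and at 13.4, 12.8 and 9.26 CPM in KO-O2. The highest KO mouse was below the lowest WT mouse by a wide margin. The log2 fold change was -1.57 in KO-RA vs WT-RA (SE 0.17, edgeR q = 0.000113) and -1.31 in KO-O2 vs WT-O2 (SE 0.17, edgeR q = 0.000687). With the cholinergic score as a covariate it was -1.75 (edgeR q = 0.00369) and -1.55 (edgeR q = 0.0673) and still called. Both calls were lost with striatal and thalamic scores, at -1.29 (edgeR q = 0.175) and -1.12 (edgeR q = 0.209), and with the hippocampal and pallial score, at -1.14 (edgeR q = 0.662) and -0.95 (edgeR q = 0.844). Of all genes, 16 and 12 were called with the former scores and 0 and 0 with the latter. Sort1, of the same family, had positive values in both comparisons and was not called.

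Sorcs2, a co-receptor of p75 for precursor neurotrophins, averaged 75.6 ± 7.18 CPM in WT-RA and 75 ± 5.32 CPM in KO-RA, and 82.2 ± 4.01 CPM in WT-O2 and 81.9 ± 5.09 CPM in KO-O2 (SD, n = 4 in WT and 3 in KO groups). Its intervals for genotype ran from -0.18 to 0.15 in room air and from -0.17 to 0.16 in hyperoxia on the log2 scale. Sorcs3 averaged 34.5 ± 3.51 CPM in WT-O2 (n = 4) and 43.1 ± 7.23 CPM in KO-O2 (n = 3), a log2 fold change of 0.32 with an edgeR q of 0.108. Sorl1, a sorting receptor that binds the amyloid precursor, averaged 197 ± 13 CPM in WT-O2 (n = 4) and 231 ± 12.8 CPM in KO-O2 (n = 3), without overlap and with an edgeR q of 0.13. Ntf5, which encodes neurotrophin-4, had 0 to 16 counts per library, and its interval from -0.88 to 2.03 in KO-RA vs WT-RA leaves large differences undetectable at this depth.

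**Figure D4:**
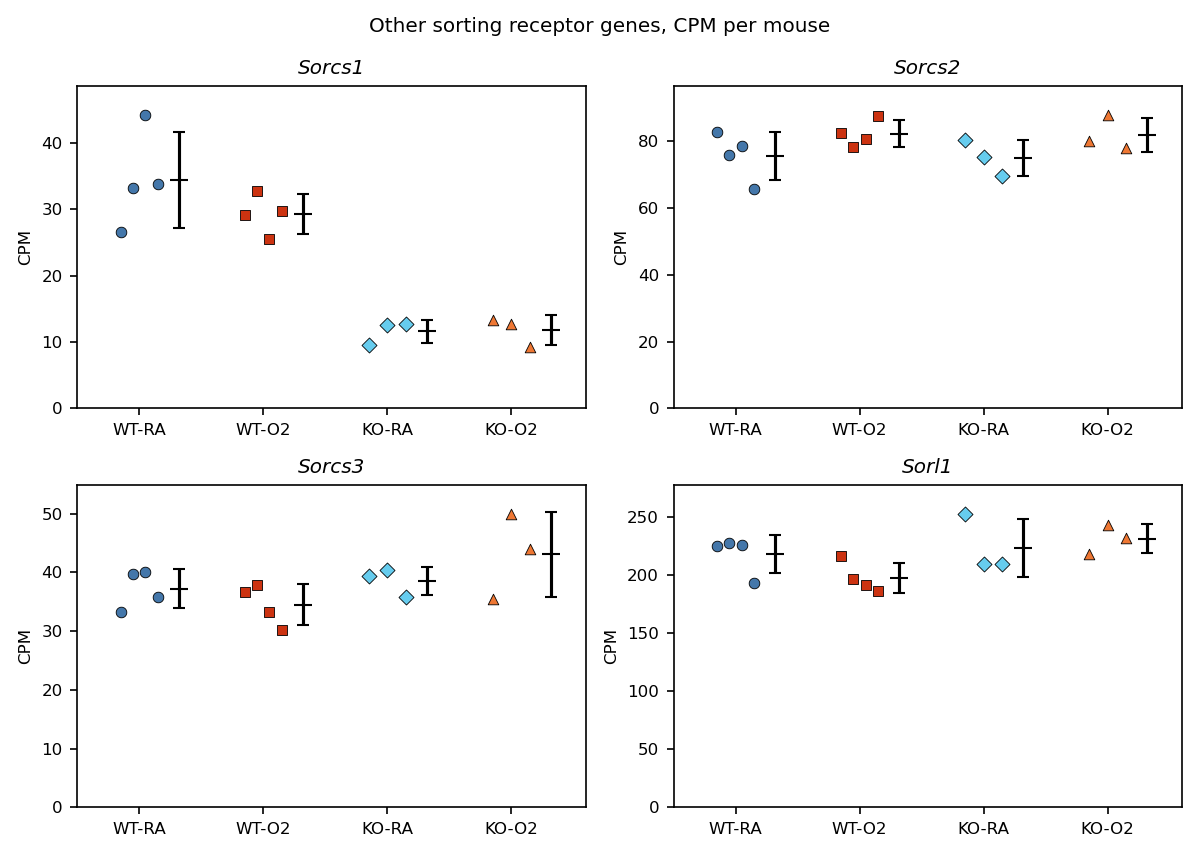
CPM per mouse of 4 sorting receptor genes, with groups on the x axis, CPM from 0 on the y axis and the mean and SD beside the points. Sorcs1 is lower in every KO mouse than in any WT mouse, while Sorcs2 and Sorcs3 overlap between genotypes within each exposure, and Sorl1 overlaps in room air but not in hyperoxia.

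Partners of these receptors were described by lists. Of 7 co-receptors and partners of p75, 0 were called for hyperoxia in WT or KO mice, 0 in KO-RA vs WT-RA and 1 in KO-O2 vs WT-O2. Over all genes, 0.643% and 0.012% were called for hyperoxia in WT and KO mice, 10.4% in KO-RA vs WT-RA and 6.86% in KO-O2 vs WT-O2. The called gene was Rtn4r, the Nogo receptor that pairs with p75, at 72.2, 67.9, 70.8 and 72.7 CPM in WT-O2 and 97.7, 86.1 and 88.9 CPM in KO-O2 (log2 fold change 0.36, SE 0.12, edgeR q = 0.09). Of 13 adaptors and effectors of Trk receptors, 1 was called in 1 comparison, KO-RA vs WT-RA, where 10.4% of all genes were called. Gab1, a docking protein, fell in KO-RA vs WT-RA, from 69.3, 46.3, 39 and 54.9 CPM to 27.6, 34.5 and 32.6 CPM (log2 fold change -0.73, SE 0.17, edgeR q = 0.0119). The medians of this list were -0.06 in KO-RA vs WT-RA and -0.06 in KO-O2 vs WT-O2.

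Of 10 genes for cleaving or sorting neurotrophin precursors, 9 were tested and 0 were called in any comparison, while Plg did not pass the filter on low counts. Over all genes, 10.4% were called in KO-RA vs WT-RA and 6.86% in KO-O2 vs WT-O2. Cpe, which sorts pro-BDNF to the regulated pathway, had 0.23 in KO-RA vs WT-RA (SE 0.07, edgeR q = 0.0546), below the fold threshold. Mmp9, a protease that can cleave pro-BDNF, had 0.56 in WT-O2 vs WT-RA (edgeR q = 0.311) and 0.64 in KO-RA vs WT-RA (edgeR q = 0.104).

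Among 10 regulators of Bdnf transcription, 1 rose and 1 fell in WT-O2 vs WT-RA, where Bdnf itself was not called and 0.643% of all genes were. Npas4, an activity-dependent factor that binds Bdnf promoters, fell from 17.8, 21.1, 26.8 and 20.1 CPM in WT-RA to 7.84, 13.4, 7.9 and 7.64 CPM in WT-O2 (log2 fold change -1.22, SE 0.22, edgeR q = 0.0414). Bhlhe40, a repressor of Bdnf, rose from 51, 49.5, 42.5 and 42.9 CPM to 67.6, 78.8, 59 and 91.8 CPM (log2 fold change 0.68, SE 0.11, edgeR q = 0.0304). Both pairs of groups stood apart. Npas4 also fell in KO-RA vs WT-RA, to 13.2, 11.3 and 7.58 CPM (log2 fold change -1.005, SE 0.23, edgeR q = 0.0137), in mice whose Bdnf was higher. Mef2c, a transcription factor of neurons, fell in KO mice in room air (log2 fold change -1.63, SE 0.29, edgeR q = 0.00272) and in hyperoxia (-1.14, SE 0.28, edgeR q = 0.0268), from 174 to 561 CPM in WT mice to 103 to 121 CPM in KO mice. Within KO mice 0 of the 10 were called for hyperoxia, beside 0.012% of all genes. Bhlhe40 had 0.51 there (SE 0.13, edgeR q = 0.66). It was at 54.8 to 57.7 CPM in KO-RA and at 74.3 to 88.7 CPM in KO-O2, so these groups also stood apart. For the same regulators, 0 were called for the interaction, as over all genes.

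Of 9 genes that BDNF or neuronal activity induces, 3 fell and 0 rose in WT-O2 vs WT-RA, 8 had an unadjusted p below 0.05, and the median log2 fold change was -0.49 beside -0.01 over all genes. Over all genes, 0.643% were called there and 12.2% had an unadjusted p below 0.05. Arc fell to 34 to 50.5 CPM from 85.7 to 122 CPM (log2 fold change -1.18, SE 0.15, edgeR q = 0.00593), and Egr1 fell with -0.85 (SE 0.14, edgeR q = 0.0248). Within KO mice, hyperoxia gave -0.96 for Arc (SE 0.17, edgeR q = 0.186) and -0.43 for Egr1 (SE 0.16, edgeR q = 0.933). Neither was called, but the KO groups did not overlap for either gene. Of the 9 genes, 5 were lower without overlap in KO mice, against 11.8% of all genes in either direction. An unadjusted p below 0.05 was reached there by 5, against 4.86%. For the interaction, 0 of the 9 and 0 of all genes were called. Fos, of the AP-1 family, fell in 4 comparisons, with -1.09 in WT-O2 vs WT-RA (SE 0.12, edgeR q = 0.00523), -1.22 between KO-RA and KO-O2 (SE 0.15, edgeR q = 0.0121), -0.58 in KO-RA vs WT-RA (SE 0.13, edgeR q = 0.0117) and -0.72 in KO-O2 vs WT-O2 (SE 0.14, edgeR q = 0.00764). In KO-RA vs WT-RA, Egr1 at -0.55 and the neuropeptide gene Npy at -0.53 also fell (edgeR q = 0.028 and 0.0165). Nptx2, which clusters synaptic receptors, rose in KO-O2 vs WT-O2 (log2 fold change 0.62, SE 0.14, edgeR q = 0.0191). The list holds 1 called gene in each direction there and 0 called higher in room air, where Bdnf was higher in KO mice. Over all genes, 2.51% were called higher and 4.35% lower in KO-O2 vs WT-O2, and 3.75% higher and 6.7% lower in KO-RA vs WT-RA.

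**Figure D5:**
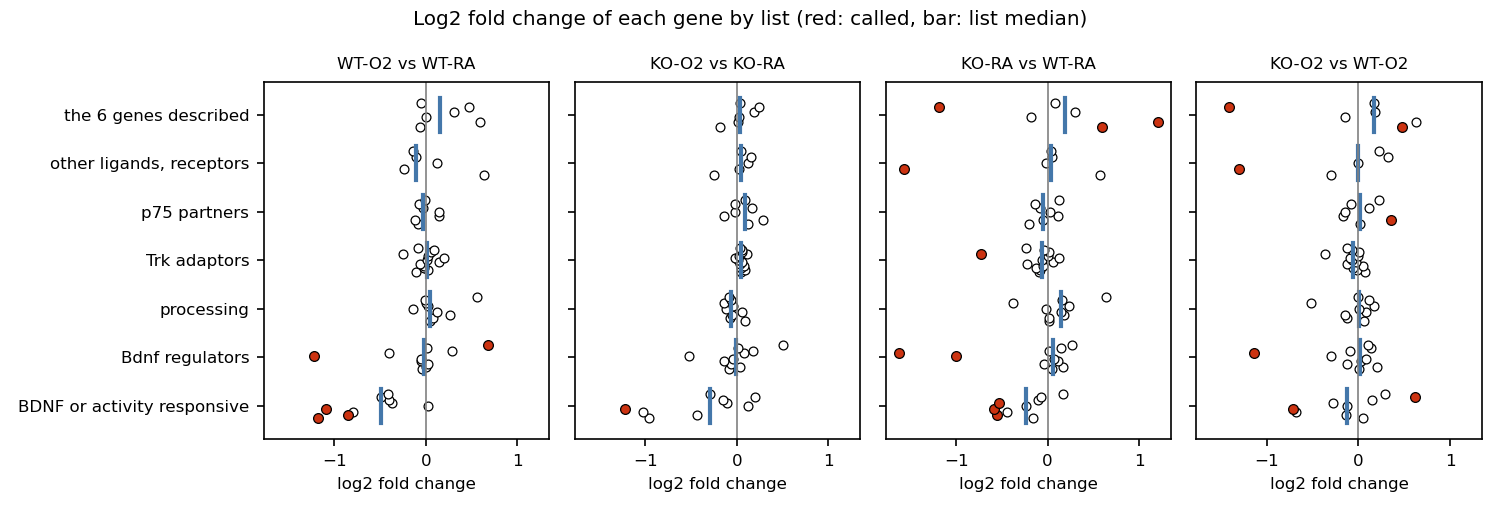
Log2 fold change (x axis) of each tested gene in the 7 gene lists (y axis) for the 4 comparisons, with called genes in red and the list median as a bar. The genes induced by BDNF or activity have medians of -0.49 and -0.29 in the hyperoxia panels and of -0.23 in KO-RA vs WT-RA and -0.13 in KO-O2 vs WT-O2. The processing list has a median of 0.15 in KO-RA vs WT-RA, and the other ligands and receptors have -0.11 in WT-O2 vs WT-RA.

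The genes whose log2 CPM was most like that of each of the 6 over the 14 libraries were found by Pearson's r, as a description. For Bdnf they were Mindy3, Mmd and Ccdc43 (r = 0.959, 0.958 and 0.951), and for Ntf3 they were Igfbpl1, Draxin and Dsp (r = 0.98, 0.965 and 0.958). Draxin and Igfbpl1 are known from immature neurons and Dsp from dentate granule cells. For Ntrk2 they were Spock3, Pde1b and Pde7b (r = 0.961, 0.95 and 0.948), and for Ntrk3 they were Grm5, Dcc and Itga4 (r = 0.961, 0.943 and 0.941). For Ngfr they included Pbx3 and Slc32a1 (r = 0.951 and 0.943), of which Slc32a1 loads GABA into vesicles, and for Sort1 they were Dagla, Epha7 and Ptprj (r = 0.914, 0.911 and 0.904). With group means removed these r ranged from 0.766 to 0.963. Among the 6 genes themselves, Bdnf and Ngfr had r = -0.928 over all libraries and -0.823 with group means removed, while Bdnf and Ntrk2 had -0.824 and -0.165. Ntf3 and Sort1 had 0.757 and 0.895. These libraries share the region differences described above.

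To compare levels between genes, CPM was divided by transcript length, the longest protein-coding transcript in GENCODE M21. In WT-RA, Ntrk2 at 72.9 ± 3.33 CPM per kb and Sort1 at 69.2 ± 7.08 CPM per kb were the highest and overlapped within their spread (SD, n = 4). Ntrk3 at 8.64 ± 0.808 CPM per kb and Bdnf at 6.43 ± 0.347 CPM per kb followed, and Ntf3 at 1.65 ± 0.629 CPM per kb and Ngfr at 1.2 ± 0.467 CPM per kb were the lowest and overlapped. The spacing depends on the length used. With the median transcript, Ntrk2 came to 209 CPM per kb, Ntrk3 to 62.5 CPM per kb and Sort1 to 69.4 CPM per kb, because the longest transcript of Ntrk3 has 19703 bases and its median transcript 2726. In KO-RA, Ntf3 at 3.83 ± 0.288 CPM per kb and Ngfr at 0.526 ± 0.207 CPM per kb no longer overlapped (SD, n = 3).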

How the data were processed

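RNA from hippocampus was polyA selected and sequenced as paired-end reads. The authors quantified reads with Kallisto against GRCm39 (release 104) and summed transcripts to genes with tximport. They deposited these estimated counts per gene. Versions and the scaling in tximport are not given in the sources used here. Between 41% and 43.2% of values in a library were not whole and were rounded. Of 36118 genes, 35825 could be given a symbol.

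Counts were filtered with filterByExpr and scaled by TMM, and the quasi-likelihood F-test of edgeR 4.0.16 (R 4.3.3) was run with 1 coefficient for each group. All tests are two-sided. Log2 CPM used a prior count of 2. Exact permutation tests took every order of the mice in Python 3.11.15, and Pearson's r and Spearman's rho of these relations came from SciPy 1.17.1. Calls were tested on simulated data.

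The 6 genes and all lists were chosen with earlier results of these data known. The 6 genes and 5 other ligands and receptors are named whatever their values. From other lists, up to 4 called genes with the largest change are named per comparison, or up to 2 with the smallest p, and the 3 genes most like each member. Some genes under these rules are not reported here. Other genes, such as Gsdmd, Chat and Prox1, are named as checks. The alternatives were DESeq2 1.42.0, its size factors, library size alone, other filters, other thresholds, edgeR on 2 groups, marker scores as covariates, mouse GSD408 as room air and each mouse left out. Motif windows and lengths come from an older build, GRCm38. P-values of edgeR set group differences against the spread between mice, and exact permutation p-values concern relations over mice of both exposures.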

Additional observations from a re-analysis of the deposited data

Results flagged for a closer look

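Among 30 groups of 4 mice examined for a single distant value in the named ligands, receptors and marker sums, 3 held one, and chance flags about 1 in 20 groups. Ntrk3 was at 194 CPM in WT-RA mouse GSD399, above the 160 to 164 CPM of the other WT-RA mice. Sorl1 was at 193 CPM in WT-RA mouse GSD401, below the 225 to 227 CPM of the others. The summed cholinergic markers were at 4.49 CPM in WT-RA mouse GSD400, below the 12.7 to 13.7 CPM of the others, and Ngfr was at its lowest WT value in the same mouse.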

How the results depend on the processing

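For hyperoxia in WT, hyperoxia in KO mice and the interaction, 0 of the 6 genes were called under every alternative run. In KO-O2 vs WT-O2 the count was 2, and became 1 at a fold change of 1.5, 1 with mouse GSD408 as room air, and 0 with striatal and thalamic, with cholinergic or with hippocampal and pallial scores as covariates. Over all genes the count was 1142, and became 607, 766, 12, 51 and 0 under the same alternatives in this order. The count of the 6 genes ranged from 1 to 3 with 1 mouse left out, with 1 without KO-O2 mouse GSD494 or GSD495. That of all genes ranged from 675 to 1335, with 848 and 675 without these mice. In KO-RA vs WT-RA the count of the 6 was 3, became 2 at a q threshold of 0.05 and 2 with edgeR on the 2 groups compared, where Ngfr was lost, became 0 under each of the 3 covariate fits, and ranged from 2 to 4 with 1 mouse left out. Over all genes it was 1738, and became 1320 at that threshold and 1326 on the 2 groups. The covariate fits, in the order above, left 16, 590 and 0 of all genes, and leaving out 1 mouse left 1076 to 1929. Bdnf was called higher in KO mice in both comparisons under each alternative except the covariate fits and, in hyperoxia, the fold change of 1.5.

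The log2 values that changed sign were ones that had not been called, or genotype values under covariates. With striatal and thalamic scores, KO-O2 vs WT-O2 gave -0.055 for Bdnf, 0.26 for Ngfr and -0.21 for Ntrk3, and KO-RA vs WT-RA gave 0.37 for Ngfr, -0.089 for Ntrk3 and -0.034 for Sort1. With the cholinergic score, Ngfr gave 0.21 and 0.13 in these comparisons and 0.083 for the interaction, and Sort1 gave -0.010 in KO-RA vs WT-RA. With the hippocampal and pallial score, KO-O2 vs WT-O2 gave -0.080 for Bdnf, -0.39 for Ntf3, -0.29 for Ntrk3, 0.38 for Ngfr and -0.21 for Sort1, KO-RA vs WT-RA gave -0.081 for Bdnf, -0.26 for Ntrk3, 0.85 for Ngfr and -0.37 for Sort1, and the Bdnf interaction was 0.00084. With mouse GSD408 as room air, hyperoxia in WT gave 0.063 for Bdnf and -0.022 for Ntrk2, and the interaction gave 0.19 for Ngfr. Ntrk2 for hyperoxia in WT was -0.0019 with library size only, -0.0023 with striatal and thalamic scores and -0.0094 with the cholinergic score. For hyperoxia in KO mice, the striatal and thalamic, cholinergic and hippocampal scores gave -0.020, -0.025 and -0.12 for Ntf3, the cholinergic score gave -0.0038 for Sorcs1 and the hippocampal score gave -0.011 for Sort1.

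With 1 mouse left out, hyperoxia in KO mice ranged from -0.042 to 0.47 for Ngfr, from -0.078 to 0.075 for Ntf3, from -0.094 to 0.17 for Sorcs1 and from -0.0011 to 0.10 for Sort1. Hyperoxia in WT ranged from -0.14 to 0.0085 for Bdnf and from -0.024 to 0.031 for Ntrk2, and the interaction from -0.20 to 0.0080 for Bdnf. The cause was not tested. Over all genes, DESeq2 called 310 for hyperoxia in WT, 13 for hyperoxia in KO mice, 1317 in KO-O2 vs WT-O2 and 1840 in KO-RA vs WT-RA, against 107, 2, 1142 and 1738 by edgeR. The count for hyperoxia in WT was 20 with edgeR on 2 groups, 6 with mouse GSD408 as room air and 13 to 272 with 1 mouse left out. No paired analysis was possible because the labels give no replicate numbers shared between groups. Genes with few counts, such as Ntf5, carry wide intervals at this depth.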
